A study of Mus musculus with 4 samples.

Results

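The Fanconi anaemia and homologous recombination genes examined here were a set of 32 genes chosen by symbol, out of 51912 Ensembl genes with a value in each library. All 32 were found, each as 1 GRCm38 gene in GENCODE M21. The tissue was mouse bone marrow, from which long-term haematopoietic stem cells (LT-HSCs) were sorted as lineage-negative Sca1+ Kit+ (LSK) cells lacking CD34 and Flk2. There were 2 Fam122a knockout (KO) libraries and 2 wild-type (WT) libraries, all from C57BL/6 mice of 8 to 12 weeks, and RNA for each library was taken from the sorted cells of 3 animals mixed together. How Fam122a was deleted, and in which cells, is not given in the sources used here. WT replicate 2 stood furthest apart in RNA content, so KO replicates 1 and 2 were compared with WT replicate 1, and WT replicate 2 is given separately. WT replicate 1 also differed from the KO libraries. Its unannotated loci held 9.14% of all signal, against 1.74% and 1.81% in KO. Its coding genes of long genomic span had a median of 7.22 FPKM, against 0.92 and 1.02 FPKM in KO. On both measures it lay between KO and WT replicate 2.

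These genes repair crosslinks between DNA strands and broken chromosomes. In the Fanconi pathway a core complex attaches ubiquitin to the FANCD2 and FANCI pair, which directs nucleases to a crosslinked fork. In homologous recombination, broken ends are trimmed back, and BRCA2 with its partners prepares the exposed strand so that the sister chromatid can serve as the template. Many of the genes are transcribed most in S phase, where E2F factors act on their promoters. Loss of Fanconi genes is known for bone marrow failure through exhaustion of stem cells. The FAM122A protein binds and inhibits the phosphatase PP2A.

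Promoter windows of RefSeq (GRCm38.p6, 250 bases before to 50 after the annotated start) were matched by symbol for 24 of the 32 genes. Those with no entry were Fancd2, Exo1, Nbn, Rad50, Rad51d, Rad54b, Rbbp8 and Xrcc2. An E2F motif, searched on both strands as TTTGGCGC, TTTCGCGC, TTTCCCGC or TTTGCCGC, lay in the windows of 4 of 24 genes (16.7%), against 704 of 27025 genes with a window (2.6%). The CCAAT box, searched as CCAAT on both strands, lay in 16 of 24 (66.7%), against 41.1% of all genes. The cell cycle element CHR (TTTGAA or TTCGAA) lay in 2 of 24, or 8.33%, against 21.7%. An ETS motif (CCGGAAGT) also lay in 2, against 4.31%. The TATAAA box lay in 2 as well, against 15.7%, and the NRF1 motif in 0, against 1.07%. The shares for all genes were not matched for base composition, and a match describes the letters only.

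The windows with an E2F match before the start, and the window with the most CCAAT boxes, are shown because E2F and CCAAT were the motifs more frequent here than among all genes by the most percentage points. Each is the 250 bases before the start, 5′ to 3′ on the gene's strand, with E2F, CCAAT and ETS matches in capitals. Other motifs stay in lower case, such as the CHR match in Bard1 and the TATAAA match in Brca2. In Fancg (chr4:43010302-43010551, minus strand) the E2F match ran from 52 to 45 bases before the start. In Brca2 (chr5:150522371-150522620, plus strand) it ran from 168 to 161 bases before it, on the opposite strand. In Bard1 (chr1:71102973-71103222, minus strand) it ran from 209 to 202 bases before it. The fourth gene with a match, Rad51c, is not shown. The Xrcc3 window (chr12:111813880-111814129, minus strand) held 6 CCAAT boxes, of which a pair in opposite directions adjoin. No E2F, CCAAT or ETS matches overlapped in these windows.
Fancg: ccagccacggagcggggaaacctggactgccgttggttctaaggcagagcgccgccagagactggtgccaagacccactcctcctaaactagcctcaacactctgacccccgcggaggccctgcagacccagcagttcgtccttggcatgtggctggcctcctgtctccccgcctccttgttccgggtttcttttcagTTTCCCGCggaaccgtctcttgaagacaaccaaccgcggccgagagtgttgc
Brca2: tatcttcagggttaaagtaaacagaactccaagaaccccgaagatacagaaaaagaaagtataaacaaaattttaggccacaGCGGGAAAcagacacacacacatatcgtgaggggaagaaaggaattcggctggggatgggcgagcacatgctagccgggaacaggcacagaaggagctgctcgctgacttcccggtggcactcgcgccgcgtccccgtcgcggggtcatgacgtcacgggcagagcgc
Bard1: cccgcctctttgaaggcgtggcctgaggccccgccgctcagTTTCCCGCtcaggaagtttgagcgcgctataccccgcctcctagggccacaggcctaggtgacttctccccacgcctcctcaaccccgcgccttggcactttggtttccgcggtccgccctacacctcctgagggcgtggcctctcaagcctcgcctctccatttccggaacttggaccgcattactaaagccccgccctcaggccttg
Xrcc3: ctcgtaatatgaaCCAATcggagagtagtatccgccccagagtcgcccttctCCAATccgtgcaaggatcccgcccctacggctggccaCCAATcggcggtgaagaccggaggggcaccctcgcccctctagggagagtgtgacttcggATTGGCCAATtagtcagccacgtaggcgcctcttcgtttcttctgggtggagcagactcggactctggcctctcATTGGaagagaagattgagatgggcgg

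Values are read as FPKM (fragments relative to gene length and to sequencing depth), a unit inferred from the values. The files give no depth, but the steps between low values of single-exon genes implied 6810000 and 5940000 fragments in the KO libraries, and 4230000 and 2550000 in WT replicates 1 and 2. Fam122a was listed at 0 in both KO libraries, against 18.39 FPKM in WT replicate 1 and 7.46 FPKM in WT replicate 2, in accord with the labels. A count of 3 fragments there equals 0.73 FPKM in KO replicate 1 and 0.83 FPKM in KO replicate 2. WT replicate 2 had a ribosomal protein gene median of 13.8 FPKM, against 391 and 349 FPKM in KO and 507 FPKM in WT replicate 1. Its unannotated loci held 53.9% of all signal, against 1.74% and 1.81% in KO and 9.14% in WT replicate 1. In coding genes spread over more than 16 times their exonic length, the median was 0.92 and 1.02 FPKM in KO, against 7.22 FPKM in WT replicate 1 and 27.6 FPKM in WT replicate 2. Of the sort markers, Kit and Ly6a were present in both KO libraries (93.5 and 129 FPKM, and 230 and 205 FPKM) and in WT replicate 1 (81.7 and 201 FPKM). In WT replicate 2 Kit was at 2.26 FPKM and Ly6a was listed at 0.

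Differences were tested with limma on log2(FPKM + 1), with Benjamini-Hochberg adjustment over the 16580 genes whose average of the KO mean and WT replicate 1 was at least 1 FPKM. All log2 differences are KO minus WT replicate 1 on that scale, which understates the change of low genes. The lone WT library was assumed to vary like the KO pair. Of the 32 genes, 31 were tested, and Bard1 lay below the filter.

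No Fanconi or recombination gene passed an adjusted p of 0.05 in limma, while more of them were higher than lower in KO. Of the 31, 4 were higher (12.9%) and 1 lower (3.23%) at an unadjusted p under 0.05, against 11.9% and 23.3% of all genes and 13.7% and 17.2% of coding genes. The share higher was thus near the background. Over all genes, 0.814% were called higher and 12.9% lower, and over coding genes 0.798% and 7.85%. Both KO libraries lay above WT replicate 1 for 18 of the 31 genes (58.1%), against 40.1% of all genes tested and 45.9% of coding genes. Both lay below it for 8 (25.8%), against 46.2% of all genes and 40.3% of coding genes. The median log2 difference was 0.39 over the 31, against -0.06 over all genes tested and 0.06 over coding genes. A log2 difference of at least 1 upward was seen in Fancm, Xrcc3, Rad54b and Ercc1, 4 of 31, against 7.97% of all genes and 8.02% of coding genes. A difference as large downward was seen in Rad51b and Slx4, against 24.4% of all genes and 16.8% of coding genes. The 2 KO libraries came within a median of 0.25 on the log2 scale of each other over the 31, yet in 14 of them the KO pair differed by more than its mean differed from WT replicate 1.

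The median depended on the KO library and the scaling, and the calls on the filter. Without KO replicate 1 the median was 0.31, and without KO replicate 2 it was 0.21. With no filter beyond a value above 0, limma called Xrcc3, Rad54b and Ercc1 higher (adjusted p = 0.0262, 0.0327 and 0.0454) and Nbn lower (adjusted p = 0.0486). Among all 30258 genes kept in that setting, 761 were called higher and 9265 lower. The FPKM totals over Ensembl genes were 817438 and 801266 in KO and 952543 in WT replicate 1. Scaling to equal totals moved the median of all genes to 0.16 and that of the 31 genes to 0.61, quantile normalization moved them to 0.17 and 0.54, and median-ratio scaling moved them to -0.22 and 0.24.

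**Figure D1:**
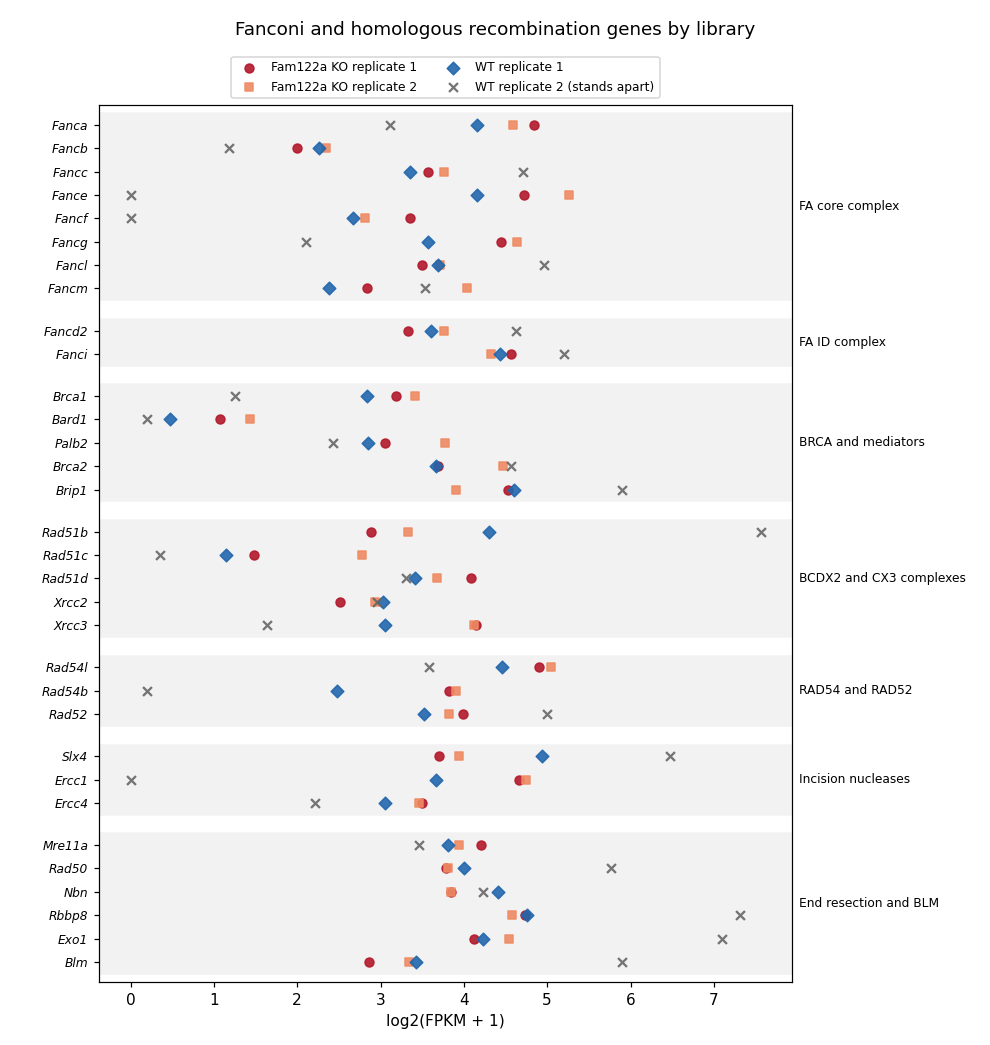
Level of each of the 32 genes in each library as log2(FPKM + 1), grouped by role, with KO replicates as a circle and a square, WT replicate 1 as a diamond and WT replicate 2 as a cross. The KO markers lie right of the WT replicate 1 diamond for most core complex genes, and the WT replicate 2 crosses range from 0 in Fance, Fancf and Ercc1 to 188 FPKM in Rad51b.

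The core complex genes, whose products assemble the ubiquitin ligase, included none that was lower in both KO libraries than in WT replicate 1, and 6 of 8 that were higher in both. Over all genes tested, 46.2% were lower and 40.1% higher in both, and the group was not tested as a whole. Fancg was at 20.71 and 23.93 FPKM in KO, against 10.87 FPKM in WT replicate 1 and 3.29 FPKM in WT replicate 2. The KO libraries were alike and about 2.05-fold above WT replicate 1 (log2 difference 0.97, SE 0.17, limma adjusted p = 0.115). Fancg, at GRCm38 chromosome 4, 43002343 to 43010506 on the minus strand, encodes a scaffold subunit. Fanca, which binds Fancg, was at 27.72 and 23.14 FPKM in KO, against 16.80 FPKM in WT replicate 1 and 7.65 FPKM in WT replicate 2 (0.56, SE 0.19). The groups did not overlap. Fance, the subunit that contacts FANCD2, was at 25.38 and 37.38 FPKM in KO, against 16.85 FPKM in WT replicate 1 (0.83, SE 0.35), and was listed at 0 in WT replicate 2. The KO libraries stood further apart for Fance than for Fanca or Fancg.

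Fancm, a DNA translocase that brings the core complex to chromatin, had the widest relative gap between KO libraries of these 8 genes, at 6.14 and 15.44 FPKM. It was at 4.19 FPKM in WT replicate 1 and 10.61 FPKM in WT replicate 2. Its log2 difference of 1.06 thus had an SE of 0.78, and KO replicate 1 alone gave 0.46. Fancf, a single-exon adaptor gene (chromosome 7, 51860577 to 51862267), was at 9.22 and 6.05 FPKM in KO, against 5.34 FPKM in WT replicate 1 and a listed 0 in WT replicate 2. Those values correspond to an estimated 90.5 and 51.8 fragments in KO and 32.5 fragments in WT replicate 1, and 3 fragments would have given 0.82 FPKM in WT replicate 2. Fancc, a subunit that works with Fance and Fancf, was at 10.83 and 12.51 FPKM in KO, against 9.23 FPKM in WT replicate 1 and 25.18 FPKM in WT replicate 2. For both genes the KO libraries were above WT replicate 1, but less than 1 SE separated KO replicate 2 from it in Fancf.

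In the other core genes WT replicate 1 lay between the KO libraries. Fancl, the catalytic ubiquitin ligase subunit, was at 10.31 and 12.16 FPKM in KO, against 11.89 FPKM in WT replicate 1 and 30.05 FPKM in WT replicate 2. Fancb, an X-linked subunit that pairs with Fancl, was at 2.98 and 4.10 FPKM in KO, against 3.80 FPKM in WT replicate 1 and 1.26 FPKM in WT replicate 2. Their log2 differences were -0.08 (SE 0.21) and -0.09 (SE 0.27), and scaling to equal totals turned both upward, to 0.14 and 0.09.

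The substrates of the core complex showed no separation of KO from WT replicate 1. Fancd2 was at 9.04 and 12.54 FPKM in KO, against 11.15 FPKM in WT replicate 1 and 23.75 FPKM in WT replicate 2. Its partner Fanci was at 22.58 and 18.99 FPKM in KO, against 20.65 FPKM in WT replicate 1 and 35.92 FPKM in WT replicate 2. WT replicate 1 lay between the KO libraries for both genes, and the log2 differences were -0.06 (SE 0.31) and 0.00 (SE 0.18). Scaling to equal totals turned Fancd2 upward (0.16), and median-ratio scaling turned Fanci downward (-0.15).

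The BRCA genes and mediators were mostly higher in KO, with wide spread between the KO libraries. Brca1, a ligase and scaffold that promotes end trimming, was at 8.08 and 9.68 FPKM in KO, against 6.15 FPKM in WT replicate 1 and 1.38 FPKM in WT replicate 2 (0.46, SE 0.24). Its obligate partner Bard1 was the lowest of the 32 in both KO libraries and in WT replicate 1, at 1.11 and 1.71 FPKM in KO, against 0.39 FPKM in WT replicate 1 and 0.15 FPKM in WT replicate 2. Brca1 and Bard1 were thus both above WT replicate 1 in each KO library, at very unlike levels. Palb2, which bridges BRCA1 and BRCA2, was at 7.29 and 12.64 FPKM in KO, against 6.20 FPKM in WT replicate 1 and 4.40 FPKM in WT replicate 2 (0.56, SE 0.49). Brca2, the mediator that acts on the trimmed strand, was at 11.92 and 21.23 FPKM in KO, against 11.69 FPKM in WT replicate 1 and 22.60 FPKM in WT replicate 2 (0.42, SE 0.51). In Brca2 KO replicate 1 was level with WT replicate 1, and the difference came from KO replicate 2. Brip1, a helicase that binds BRCA1, lay on the other side, at 22.07 and 13.95 FPKM in KO, against 23.30 FPKM in WT replicate 1 and 58.70 FPKM in WT replicate 2 (-0.39, SE 0.41).

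The genes of the BCDX2 and CX3 complexes, which assist strand exchange, included both large upward and large downward differences. Xrcc3 (chromosome 12, 111803192 to 111813873, minus strand) was at 16.67 and 16.35 FPKM in KO, against 7.31 FPKM in WT replicate 1 and 2.1 FPKM in WT replicate 2. The KO libraries nearly coincided and were 2.26-fold above WT replicate 1 (log2 difference 1.08, SE 0.15, limma adjusted p = 0.0908). Its complex partner Rad51c was at 1.80 and 5.84 FPKM in KO, against 1.22 FPKM in WT replicate 1 and 0.28 FPKM in WT replicate 2 (0.98, SE 0.82). The KO libraries differed 3.24-fold from each other in Rad51c, the widest relative gap of the 32 genes.

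Rad51b (chromosome 12, 79297282 to 79814690) had the lowest log2 difference of the 31. It was at 6.42 and 9.08 FPKM in KO, against 18.75 FPKM in WT replicate 1 and 187.52 FPKM in WT replicate 2 (-1.19, SE 0.32, limma adjusted p = 0.171). Its genomic span of 517409 bases is 138 times its exonic length, the highest ratio of the 32 genes, and it was the highest of them in WT replicate 2. Whether the signal of long-span genes in WT sets this difference was not tested. Rad51d, which forms a complex with Xrcc2, was at 15.92 and 11.77 FPKM in KO, against 9.68 FPKM in WT replicate 1 and 8.90 FPKM in WT replicate 2 (0.46, SE 0.30). Xrcc2 was at 4.69 and 6.66 FPKM in KO, against 7.17 FPKM in WT replicate 1 and 6.76 FPKM in WT replicate 2 (-0.31, SE 0.33). The partners therefore lay on opposite sides of WT replicate 1, although quantile normalization turned Xrcc2 upward (0.12).

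All 3 genes of the RAD54 and RAD52 group were higher in both KO libraries than in WT replicate 1, as were 40.1% of all genes tested. Rad54b, a DNA translocase that acts in strand exchange, had the largest log2 difference of the 31, at 13.15 and 13.98 FPKM in KO, against 4.56 FPKM in WT replicate 1 and 0.15 FPKM in WT replicate 2. The KO libraries were 2.97-fold above WT replicate 1 (1.39, SE 0.18, limma adjusted p = 0.0863). Rad54b (chromosome 4, 11558922 to 11615805) shares 35.8% of its exonic bases with Fsbp on the same strand, which was at 0 and 0.32 FPKM in KO and 0.41 FPKM in WT replicate 1, so its value is uncertain to the extent that such reads were split. Rad54l, its relative with the same role, was at 29.00 and 32.13 FPKM in KO, against 21.00 FPKM in WT replicate 1 and 10.97 FPKM in WT replicate 2 (0.52, SE 0.12). It was the highest of the 32 genes in KO replicate 1. Rad52, a strand annealing gene, was at 14.94 and 13.15 FPKM in KO, against 10.44 FPKM in WT replicate 1 and 30.91 FPKM in WT replicate 2 (0.39, SE 0.18).

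The incision genes split between the nuclease and its platform. Ercc1 (chromosome 7, 19344778 to 19356524), the DNA-binding partner of the ERCC4 nuclease, was at 24.25 and 25.91 FPKM in KO, against 11.68 FPKM in WT replicate 1, and was listed at 0 in WT replicate 2. The KO libraries were 2.15-fold above WT replicate 1, and the adjusted p was the smallest of the 31 (1.04, SE 0.12, limma adjusted p = 0.0782). Ercc4 was at 10.32 and 10.03 FPKM in KO, against 7.30 FPKM in WT replicate 1 and 3.65 FPKM in WT replicate 2 (0.43, SE 0.18). Slx4 (chromosome 16, 3979105 to 4003770, minus strand), the scaffold that docks these nucleases, was at 12.05 and 14.42 FPKM in KO, against 29.51 FPKM in WT replicate 1 and 87.47 FPKM in WT replicate 2. Slx4 was the highest of the 32 genes in WT replicate 1 and ranked 17 and 12 in the KO libraries (-1.10, SE 0.19, limma adjusted p = 0.114). Its span is 3.22 times its exonic length, unlike that of Rad51b, but here too WT replicate 2 gave the highest level.

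Of the end resection genes and Blm, 4 of 6 were lower in both KO libraries than in WT replicate 1 and 1 was higher, with no test of this group against the other roles. Over all genes tested, 46.2% were lower and 40.1% higher in both. Nbn, the sensor subunit of the MRN complex, was at 13.39 and 13.32 FPKM in KO, against 20.26 FPKM in WT replicate 1 and 17.83 FPKM in WT replicate 2 (-0.57, SE 0.13, limma adjusted p = 0.143). The KO libraries were alike and below both WT libraries. Of its partners, Rad50 was at 12.84 and 13.03 FPKM in KO, against 15.05 FPKM in WT replicate 1 and 53.33 FPKM in WT replicate 2 (-0.20, SE 0.14). Mre11a, the nuclease, was at 17.52 and 14.40 FPKM in KO, against 12.97 FPKM in WT replicate 1 and 10.05 FPKM in WT replicate 2 (0.27, SE 0.21). The 3 subunits of this complex thus did not share a side. Rbbp8, the CtIP gene that starts resection, was at 25.52 and 22.86 FPKM in KO, against 26.14 FPKM in WT replicate 1 and 157.71 FPKM in WT replicate 2 (-0.11, SE 0.13). Exo1, the exonuclease that extends it, was at 16.47 and 22.21 FPKM in KO, against 17.72 FPKM in WT replicate 1 and 135.59 FPKM in WT replicate 2 (0.11, SE 0.28). Scaling turned the direction of Rad50, Rbbp8 and Exo1, so neither side can be given for them. Blm, the helicase that dissolves joined chromatids, was at 6.24 and 9.16 FPKM in KO, against 9.70 FPKM in WT replicate 1 and 58.63 FPKM in WT replicate 2 (-0.32, SE 0.36).

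**Figure D2:**
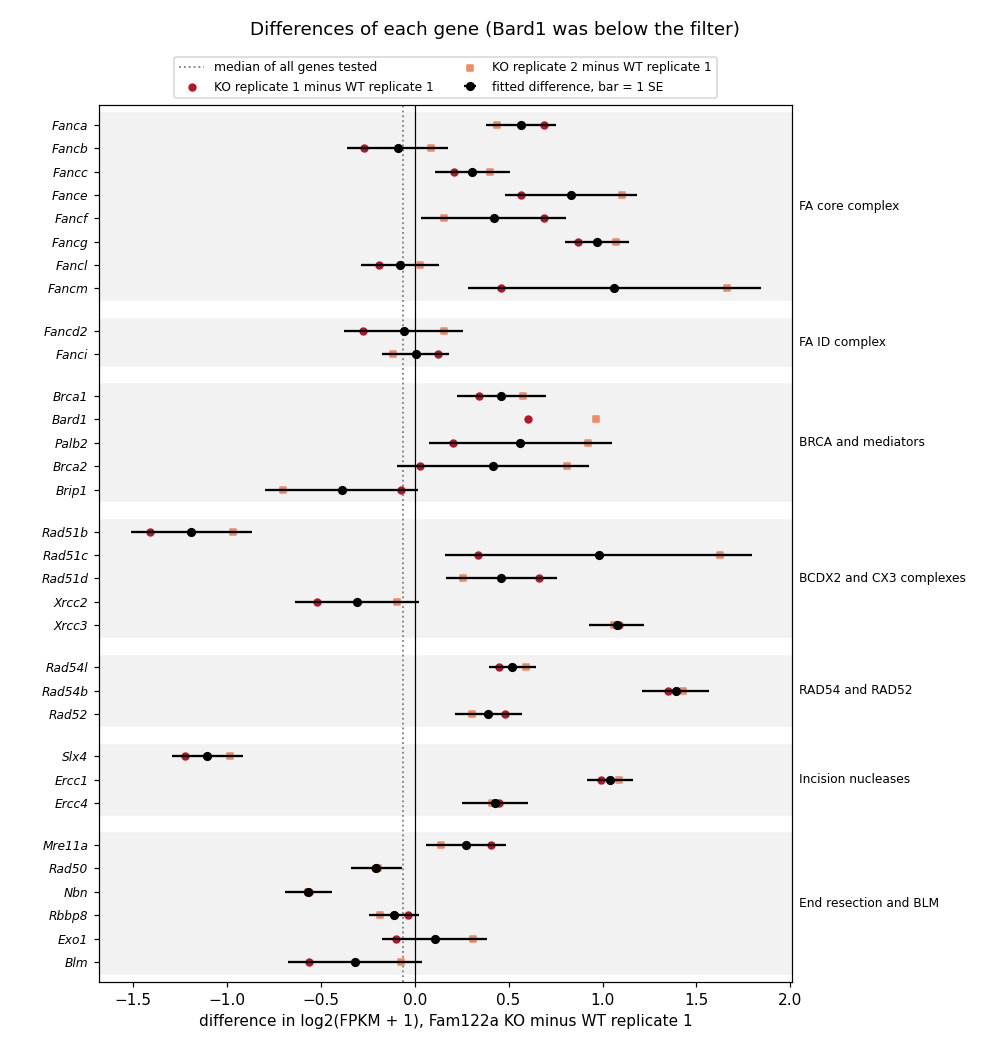
Difference in log2(FPKM + 1), KO minus WT replicate 1, for each gene, with KO replicates 1 and 2 as coloured points and the fitted value with 1 SE in black. Rad54b, Xrcc3 and Ercc1 lie above 1 with KO points close together, Rad51b and Slx4 lie below -1, and the dotted line marks the median of all genes tested, -0.06.

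With WT replicate 1 as the only WT library, 23 of the 31 genes kept their direction in every setting, upward in 18 and downward in 5. The 5 were Brip1, Rad51b, Slx4, Nbn and Blm. The other 8 were Fancb, Fancl, Fancd2, Fanci, Xrcc2, Rad50, Rbbp8 and Exo1. With all 4 libraries, Fancc, Brca2 and Rad52 of the 18 turned downward (-0.37, -0.03 and -0.35). In that fit 16 genes were higher and 15 lower, and 0 passed in limma, as over all genes. An unadjusted p under 0.05 in limma was reached by 0 of the 31, against 118 higher and 2364 lower among all 20433 genes tested.

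The difference from WT replicate 1 went with the level in WT replicate 2, in a relation that is partly built in. Across the 31 genes the log2 difference had a Pearson correlation of -0.73 and a Spearman correlation of -0.73 with log2(FPKM + 1) in WT replicate 2, against -0.46 and -0.41 over all 16580 genes tested. WT replicate 1 is subtracted in the difference, and its level had a Pearson correlation of 0.66 with that in WT replicate 2 across the 31. The mean KO level had one of 0.14. Part of a negative correlation thus follows from the calculation. The split below uses WT replicate 1 on both sides and has the same limit. Genes are not independent replicates, and each point shares its length and base composition between the axes. Of the 14 genes whose level in WT replicate 2 exceeded that in WT replicate 1, 4 lay above WT replicate 1 in both KO libraries and 6 below (median -0.07). Of the 17 that were lower in WT replicate 2, 14 lay above and 2 below (median 0.52). All genes tested split the same way, with 21.7% above and 66.4% below among 6598 genes higher in WT replicate 2, and 52.2% above and 33.2% below among 9877 genes lower in it. The log2 ratio of genomic span to exonic length had Pearson correlations of -0.47 with the difference and 0.49 with the WT replicate 2 level across the 31. Whether a component shared by the WT libraries sets the lower values in KO was not tested.

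**Figure D3:**
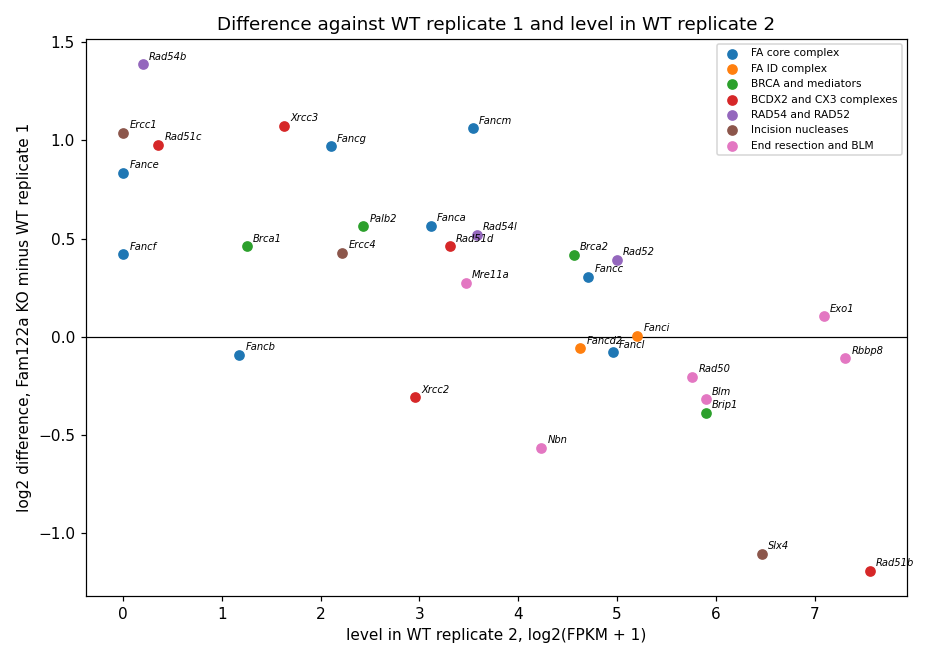
Log2 difference, KO minus WT replicate 1, against the level in WT replicate 2 as log2(FPKM + 1) for the 31 genes tested, coloured by role. Genes near 0 in WT replicate 2, such as Rad54b and Ercc1, lie at the top left, and Rad51b at 188 FPKM lies at the bottom right.

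Other genes of the same pathways gave a smaller median, 0.24 over 44 genes tested. Both KO libraries lay above WT replicate 1 in 23 (52.3%) and below it in 11 (25%), against 40.1% and 46.2% of all genes tested. In limma 0 were called higher and 1 lower, and 3 (6.82%) had an unadjusted p under 0.05 in each direction, against 11.9% higher and 23.3% lower among all genes. The called gene was Sem1, an acidic partner of BRCA2 that also belongs to the proteasome, at 95.39 and 92.38 FPKM in KO, against 170.25 FPKM in WT replicate 1 and 17.09 FPKM in WT replicate 2. It fell by 0.85 on the log2 scale (SE 0.06, limma adjusted p = 0.04999), a call lost with a filter of 1 FPKM in 2 libraries (adjusted p = 0.0829), a pseudocount of 0.1 (0.0693), equal totals (0.0647) or quantile normalization (0.0513). With all 4 libraries its direction turned (0.77). The nuclease gene Mus81, which cuts branched DNA with Eme1 or Eme2, was at 24.49 and 27.71 FPKM in KO, against 9.04 FPKM in WT replicate 1 and 2.52 FPKM in WT replicate 2 (1.43, limma adjusted p = 0.0732). Eme2 was at 9.69 and 14.04 FPKM in KO, against 4.50 FPKM in WT replicate 1 and 0.48 FPKM in WT replicate 2. Mus81 and Eme2, named for their large differences, thus lay above WT replicate 1 in both KO libraries, as Ercc1 and Ercc4 did. The nuclease genes Eme1 and Dna2 of this list also lay above it. Fan1 (3.14 and 2.31 FPKM in KO, against 3.55 FPKM) and Gen1 (4.36 and 4.26 FPKM, against 6.09 FPKM) lay below it. For Slx1b, WT replicate 1 lay between the KO libraries. Rpa1, the large subunit of the single-strand binding protein, was at 100.14 and 131.63 FPKM in KO, against 51.76 FPKM in WT replicate 1 and 7.71 FPKM in WT replicate 2. Faap100, a core complex partner of Fancb and Fancl, was at 16.01 and 19.29 FPKM in KO, against 9.06 FPKM in WT replicate 1 and 3.25 FPKM in WT replicate 2.

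Genes of dividing cells and of blood lineages are given beside these genes, with no test of a list as a whole. As background for the counts below, both KO libraries lay above WT replicate 1 in 40.1% of all genes tested and below it in 46.2%. The S phase and replication list had a median of 0.45, with both KO libraries above WT replicate 1 in 19 of 26 genes, and the G2 and mitosis list had 0.68, with 19 of 20. In limma 0 and 1 of them were called higher, 6 and 5 had an unadjusted p under 0.05 upward, and 0 were lower at either threshold, where 11.9% of all genes were higher and 23.3% lower at the unadjusted threshold. Mki67, the cycling marker, was the called gene, at 61.83 and 66.63 FPKM in KO, against 21.64 FPKM in WT replicate 1 and 1.86 FPKM in WT replicate 2 (1.53, limma adjusted p = 0.0400). That call was lost with a filter of 1 FPKM in 2 libraries (adjusted p = 0.0533), a pseudocount of 0.1 (0.0577) or all 4 libraries (0.418). Top2a, Mcm2 and Rrm2 had log2 differences of 0.72, 1.02 and 0.54, and Pcna 0.03, which turned to -0.13 with median-ratio scaling; none of the 4 passed. Erythroid markers were above WT replicate 1 in both KO libraries in 11 of 13 genes, with summed levels of 60351 and 80533 FPKM in KO, against 52299 FPKM in WT replicate 1. B cell markers were above it in 13 of 16 genes, and their median level was 89.2 and 170.5 FPKM in KO, against 12.5 FPKM in WT replicate 1. Summed B cell levels were 4765 and 7713 FPKM in KO, against 5916 FPKM in WT replicate 1. Neutrophil markers were below it in 11 of 12 genes, with sums of 75635 and 65927 FPKM in KO, against 172710 FPKM in WT replicate 1. In WT replicate 2 the erythroid, B cell and neutrophil sums were 214, 43.7 and 356 FPKM. No marker of these 3 lists was at 0 in KO or WT replicate 1, and limma called 1 of them, the B cell gene Vpreb2, higher. In such bulk samples fewer cells of a type and less RNA per cell cannot be told apart, and the part of these cells in the repair gene differences was not tested.

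**Figure D4:**
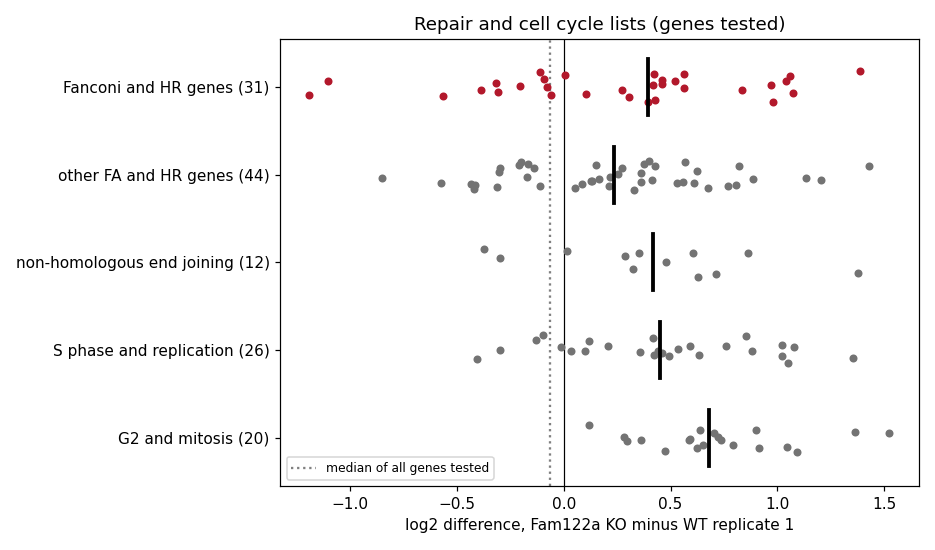
Log2 difference, KO minus WT replicate 1, of each gene tested in 5 lists, with the list median as a black bar and the median of all genes as a dotted line. The Fanconi and recombination genes (median 0.39) spread from -1.19 to 1.39, wider on the lower side than the G2 and mitosis genes, which run from 0.12 to 1.53.

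Of the 32 genes, 16 share exonic bases with another annotated gene, and 7 share more than 10%. Besides Rad54b these were Fanca (10.5% with Zfp276), Fancc (16.4% with Gm16133), Fancf (15.0% with Gas2), Fancl (13.7% with Vrk2), Fanci (15.95% with Polg) and Rad54l (15.4% with Lrrc41), each on the opposite strand. The library kit does not mark strand, so reads in the shared bases cannot be told apart.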

How the data were processed

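RNA of cells sorted as LT-HSCs was sequenced from SMART-Seq v4 libraries, per the labels' protocols. The deposited files hold 1 value per feature without a header, taken as FPKM from the values; which tool the authors counted with, and on which annotation, is not given in the sources used here. Per the submitters' processing notes, STAR 2.7.1a, HISAT2 2.1.0 and bcl2fastq are named, with GRCm38 builds and no roles. Of 87703 features, 35791 MSTRG loci name no gene and stayed out. GENCODE M21 gave names, positions and lengths for 51719 of 51912 Ensembl IDs. No depth is given: implied depths took values within 0.1 of a whole fragment, for 87.9% to 92.7% of 611 to 1444 low single-exon genes per library, with 250 bases off each length, and limits from them cover counting error only.

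KO replicates 1 and 2 were compared with WT replicate 1 with limma 3.58.1 (R 4.3.3), an intensity trend and a pseudocount of 1, at an adjusted p of 0.05; 1 residual degree of freedom remained. The test ran on simulated data first. Their WT library was drawn around the KO levels with the spread of the KO pair, so that run cannot check the assumption made for WT replicate 1. The p-values rest on the spread of 1 pair of pools. The 32 genes and all lists were chosen with earlier results of these data known. All 32 are named. Of the other pathway genes and of end joining, those past the threshold and the 5 with the largest difference on 1 side of WT replicate 1 are named; of cycle genes, Pcna, Mcm2, Rrm2, Mki67 and Top2a. Alternatives covered the libraries, the replicate block, the filter, the pseudocount and the scaling.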

Additional observations from a re-analysis of the deposited data

How the results depend on the processing

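The calls in all genes moved with the setting and those in the 31 tested Fanconi and recombination genes did so in the settings named here; the cause was not tested. As reported, limma called 135 genes higher and 2132 lower. With all 4 libraries it called 0 and 0, and the replicate block on them also gave 0 and 0. No Fanconi or recombination gene was called either way in these. Same-numbered libraries deviated together at a correlation of 0.06. With 2 libraries per group this is 1 value, and WT replicate 2 stands apart, so it cannot decide whether the numbers pair the libraries. A filter of 1 FPKM in 2 libraries gave 25 and 196, a pseudocount of 0.1 gave 53 and 1160, and no filter gave 761 and 9265, with 3 Fanconi and recombination genes higher and 1 lower. The filter in 2 libraries kept 13848 genes, and no filter kept 30258. Equal totals gave 220 higher in all genes and 3 Fanconi and recombination genes below WT replicate 1 in both KO libraries; quantile normalization gave 536 higher. The median of the Fanconi and recombination genes was 0.61 with equal totals, 0.54 with quantile normalization and 0.24 with median-ratio scaling. In the reported fit, which leaves out WT replicate 2, it was 0.39, with 8 below WT replicate 1. With only 1 KO library against WT replicate 1, or with WT replicate 2 in place of WT replicate 1, it ranged from -0.10 to 0.31. In these settings 9 to 15 were below the WT library used, a count that needs only 1 KO library where 1 was left out. The lowest and the highest of these were without WT replicate 1 (-0.10, 15 below) and without KO replicate 1 (0.31, 9 below). Without WT replicate 1, with WT replicate 2 in its place, limma called 10 of the 31 higher and 10 lower, and 7035 and 10109 of all genes, in a comparison with the library that stands apart. Leaving out a KO library left no residual degrees of freedom and so no test; without KO replicate 2 the median was 0.21.

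Directions that turned among the genes named in the report were the following, as log2 differences. Without KO replicate 1 they were Fancb 0.0875, Fancl 0.0299, Fancd2 0.156 and Fanci -0.115, and without KO replicate 2 Exo1 -0.0997 and Pcna -0.0405. With all 4 libraries, with or without the replicate block, they were Fancb 0.45, Fancc -0.37, Fanci -0.38, Brca2 -0.0302, Rad52 -0.35, Exo1 -1.33 and Sem1 0.77. Against WT replicate 2 they were Fancb 0.995, Fancc -1.05, Fancm -0.10, Fanci -0.77, Brca2 -0.48, Rad52 -1.09, Exo1 -2.76 and Sem1 2.39. With equal totals they were Fancb 0.0928, Fancl 0.14, Fancd2 0.16, Rad50 0.0154 and Rbbp8 0.12. With median-ratio scaling they were Fanci -0.15, Exo1 -0.0472 and Pcna -0.13. With quantile normalization they were Fancb 0.69, Fancl 0.0548, Fancd2 0.11, Fanci -0.0358 and Xrcc2 0.12. The filter and pseudocount settings turned none of the 31. Genes listed at 0 in WT replicate 2 cannot be placed below its depth limit.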

Other observations

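The genes of non-homologous end joining, which rejoins broken ends without a template, were described beside the recombination genes. Of 12 tested, both KO libraries lay above WT replicate 1 in 9 (75%) and below it in 2 (16.7%), against 40.1% and 46.2% of all genes tested. The 12 had a median log2 difference of 0.42 (lowest -0.38, highest 1.38). In limma 0 passed, and 3 were higher and 0 lower at an unadjusted p under 0.05, against 11.9% and 23.3% of all genes tested. Poll, a gap-filling polymerase gene, was at 10.94 and 11 FPKM in KO, against 3.60 FPKM in WT replicate 1 and 0.38 FPKM in WT replicate 2 (1.38, limma adjusted p = 0.0901). With no filter Poll passed (adjusted p = 0.0221). The Ku70 gene Xrcc6, whose product caps broken ends, was at 82.63 and 76.83 FPKM in KO, against 43.33 FPKM in WT replicate 1 and 0.86 FPKM in WT replicate 2 (0.86, limma adjusted p = 0.0701). Its Ku80 partner Xrcc5, chosen after its values were seen, was at 9.82 and 11.83 FPKM in KO, against 14.29 FPKM in WT replicate 1 and 19.57 FPKM in WT replicate 2. The Ku partners thus lay on opposite sides of WT replicate 1. Xrcc5 has a span 34.3 times its exonic length and Xrcc6 one of 11.7 times. Of the 12, Xrcc4, the other gene below WT replicate 1, has a span of 74.9 times. Nhej1 has the highest ratio, 141 times, yet lay above WT replicate 1 in both KO libraries (8.77 and 8.61 FPKM, against 6.94 FPKM). Whether span bears on the side was not tested. Prkdc, the kinase that Ku recruits, was at 6.52 and 7.71 FPKM in KO, against 3.94 FPKM in WT replicate 1 and 0.26 FPKM in WT replicate 2. Polm, a second gap-filling polymerase gene, was at 4.54 and 4.78 FPKM in KO, against 2.66 FPKM in WT replicate 1 and 3.27 FPKM in WT replicate 2. Rif1, which restrains end resection, was at 28.76 and 31.83 FPKM in KO, against 19.57 FPKM in WT replicate 1 and 3.87 FPKM in WT replicate 2. These 3 genes were named for large differences with both KO libraries on 1 side of WT replicate 1, so their separation from it was set by that choice. Both KO libraries were also above WT replicate 2 in them, and the share of all genes that do so was not counted.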
